A study of Mus musculus with 12 samples.

Results

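The interaction of *Ppargc1b* knockdown with interferon-β (IFN-β) was examined gene by gene in dendritic cells grown from mouse bone marrow. It was taken from all 12 of the 12 RNA-seq libraries of the series, in 4 groups of 3. Dendritic cells take up antigen and present it to T cells, and the cultures were grown from bone marrow of C57BL/6 female mice aged 8 to 20 weeks with the growth factor GM-CSF. Every culture was transduced with a retrovirus that carries a short hairpin RNA (shRNA) and a human CD8 reporter, and transduced cells were purified on that reporter. The hairpin was directed at firefly luciferase (shControl) or at *Ppargc1b* (sh*Ppargc1b*), and cells of each kind were left unstimulated or were treated with IFN-β for 6 h. Both genotypes therefore shared the virus, the reporter and the purification, and the knockdown stood on a hairpin whose identity the labels do not give. The interaction was the log2 fold change of sh*Ppargc1b* over shControl with IFN-β minus the same fold change without it. A value below 0 means that the knockdown effect was lower with IFN-β, which is the same as a smaller rise, or a larger fall, with IFN-β in sh*Ppargc1b* than in shControl cells.

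*Ppargc1b* encodes PGC-1β, a transcriptional co-activator that works with nuclear receptors and other factors at genes of mitochondrial metabolism. IFN-β binds its receptor on the cell surface, activates the kinases bound to it, and turns on interferon-stimulated genes, many of which carry a sequence called the interferon-stimulated response element (ISRE) near their start. In dendritic cells these genes cover antiviral defence, antigen presentation and costimulation.

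Library totals were 49919648 to 77726101 counts. Levels are given as CPM, counts per 1000000 counts of the library after TMM (trimmed mean of M-values) adjustment, and errors of log2 values are standard errors (SE). Among pairs of libraries of 1 group, counts differed most where sh*Ppargc1b* IFN-β replicate 2 was 1 of the pair (mean chi-square per gene 29.2 and 22.7, against 11.1 to 19.9 in all other pairs), and counts of calls without it are given below. Nothing in the labels says that the 3 libraries of a group came from separate animals or cultures, so p-values measure the spread between these libraries, which may be technical. Among 9 tested genes of 10 markers of dendritic cells and 12 tested of 12 markers of macrophages, none passed the interaction test with edgeR or limma-voom, against 0.730% of all genes with edgeR. DESeq2 called 1 macrophage-like marker lower and no dendritic-like marker. The median interaction was 0.04 and -0.03, respectively, and in some alternatives each had the other sign. The summed level of the dendritic-like markers was 1252 to 1394 CPM in unstimulated shControl, 1666 to 1723 in unstimulated sh*Ppargc1b*, 1300.0 to 1471 in IFN-β-treated shControl and 1777 to 1802 in IFN-β-treated sh*Ppargc1b* cells. That of the macrophage-like markers was 12956 to 13628, 8363 to 8867, 12895 to 13795 and 8270 to 9287 CPM in the same order. Both sums thus stood apart by genotype, at like sizes in both treatments. They leaned on single genes, *Lyz2* at 5108 to 10713 CPM over the libraries and *Itgax* at 901 to 1182. The macrophage-like *Csf1r* was at 1159 to 1247 CPM. The median knockdown effect was 0.55 without and 0.61 with IFN-β in the dendritic-like list, and -0.22 and -0.29 in the macrophage-like list. In bulk samples fewer cells of a type and less RNA per cell cannot be told apart.

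*Ppargc1b* itself, on chromosome 18 (chr18:61298136-61400431, minus strand, GRCm38), checked the knockdown. It was at 33.4, 33.3 and 36.7 CPM in unstimulated shControl, 18.6, 19.3 and 20.3 in unstimulated sh*Ppargc1b*, 31.4, 23.6 and 28.4 in IFN-β-treated shControl and 19.6, 15.5 and 20.9 CPM in IFN-β-treated sh*Ppargc1b* cells. The knockdown libraries were below the control libraries in both treatments, with no overlap. The knockdown effect was -0.83 without and -0.57 with IFN-β on the log2 scale. The difference was 0.25 ± 0.15 (95% confidence interval -0.06 to 0.57), and it did not pass the test (adjusted p = 0.62, edgeR). The related *Pprc1*, whose exons overlap those of *Ldb1*, had an interaction of 0.25 ± 0.15 (adjusted p = 0.617). *Ppargc1a*, with 1 to 11 counts in a library, was too low to be tested.

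Of 18228 genes tested with edgeR's quasi-likelihood test and Benjamini-Hochberg adjustment, 133 passed the interaction threshold of 0.05 (0.730%). The effect had a direction: 122 genes were lower (0.669%) and 11 were higher (0.0603%). At an unadjusted p under 0.05 the numbers were 1190 lower (6.53%) and 719 higher (3.94%), and the median interaction of all genes was -0.00. DESeq2 called 365 lower and 84 higher of the 12926 genes to which it gave an adjusted p (2.82% and 0.650%), and limma-voom called 121 and 11 (0.664% and 0.0603%). With libraries scaled by their totals alone, 67 genes were lower and 17 higher. The share of higher genes was thus 8.27% with TMM, 20.2% with totals and 18.7% with DESeq2.

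**Figure D1:**
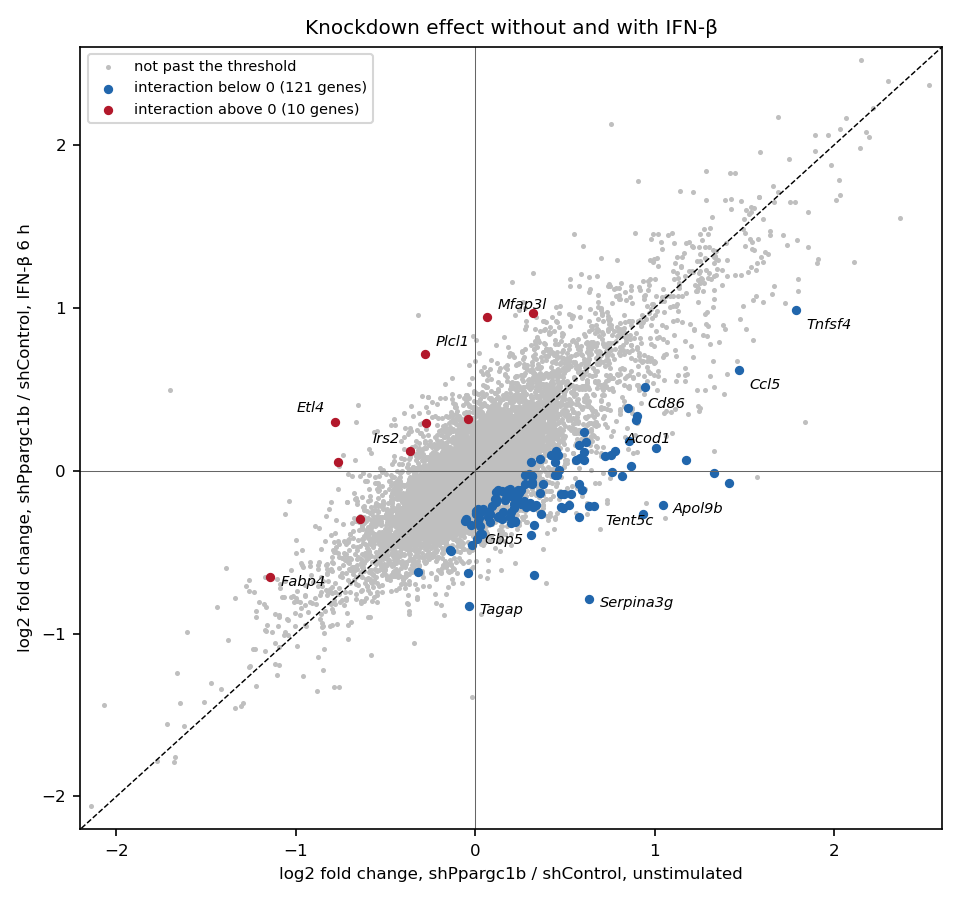
Each point is a gene, for the 13230 genes with a mean log2 CPM of at least 0. The x axis is the log2 fold change of shPpargc1b over shControl in unstimulated cells and the y axis the same with IFN-β, and the dashed line marks equal effects. Most genes past the interaction threshold (blue) lie below the line, and 10 (red) lie above it. The axes leave out 3 genes.

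The 122 lower genes had a median interaction of -0.44 (-3.40 to -0.25). Without IFN-β their median knockdown effect was 0.30, and with IFN-β it was -0.18. Their median response to IFN-β was 1.79 in shControl and 1.35 in sh*Ppargc1b* cells. By each contrast's own test, IFN-β raised 121 of them in control and 119 in knockdown cells. The knockdown raised 84 of them in unstimulated cells and lowered 66 with IFN-β. Of all genes tested, 23.6% passed for the knockdown in unstimulated cells and 24.2% with IFN-β, in either direction. These contrasts share libraries with the interaction and with each other, so their values are given side by side as a description. The 11 higher genes had a median interaction of 0.65 (0.35 to 2.11), with a median knockdown effect of -0.36 without and 0.30 with IFN-β. Their median IFN-β response was -1.19 in shControl and -0.28 in sh*Ppargc1b* cells, and IFN-β lowered 10 of them in control and 6 in knockdown cells. Of the lower genes 113 were protein coding, as were 10 of the higher.

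All 133 genes kept their sign when each library was left out in turn, and 29 of the lower and 3 of the higher genes also stayed past the threshold in every such fit. On the linear CPM scale 129 of the 133 differences of differences had the same sign as on the log2 scale. The exceptions were *Ccl5*, *Tnfsf4*, *Cd86* and *Ms4a6b*, the last named after its values were seen. The differences on the CPM scale were not tested. The number of calls was 36 without shControl unstimulated replicate 3 and 271 without sh*Ppargc1b* IFN-β replicate 2.

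The knockdown effect passed the test in both treatments with opposite signs for 29 genes (0.159% of genes tested), and all 29 also passed the interaction test. In 28 of them the knockdown effect was above 0 without and below 0 with IFN-β, and *Fam43a* showed the reverse. *Tent5c* (chr3:100451628-100489324, minus strand), whose product adds non-templated nucleotides to messenger RNA tails, had the smallest adjusted p of all genes. It was at 25.2, 23.6 and 23.02 CPM in unstimulated shControl, 39.4, 36.3 and 38.1 in unstimulated sh*Ppargc1b*, 137, 151 and 138 in IFN-β-treated shControl and 119, 126 and 120.5 CPM in IFN-β-treated sh*Ppargc1b* cells. The groups did not overlap in either treatment, and their order turned over with IFN-β. The knockdown effect was 0.66 without and -0.22 with IFN-β, an interaction of -0.88 ± 0.07 (adjusted p = 5.2e-05). *Cd69*, an early activation antigen of leukocytes (chr6:129267325-129275436), was at 12.5, 13.2 and 10.3 CPM in unstimulated shControl, 15.7, 19.3 and 18.5 in unstimulated sh*Ppargc1b*, 238, 288 and 251 in IFN-β-treated shControl and 199, 227 and 212 CPM in IFN-β-treated sh*Ppargc1b* cells. The knockdown libraries were again the higher ones before and the lower ones after IFN-β, and the interaction was -0.86 ± 0.13 (adjusted p = 0.00905).

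*Il15ra*, the receptor chain with which dendritic cells present IL-15 to other cells (chr2:11705290-11734317), was at 11.2, 11.7 and 10.4 CPM in unstimulated shControl, 17.0, 16.03 and 14.8 in unstimulated sh*Ppargc1b*, 99.9, 113 and 100.1 in IFN-β-treated shControl and 90.7, 92.0 and 88.7 CPM in IFN-β-treated sh*Ppargc1b* cells. No libraries overlapped between genotypes, and the interaction was -0.73 ± 0.09 (adjusted p = 0.00261). The transporter gene *Slco3a1* had an interaction of -0.72 ± 0.09 (adjusted p = 0.00261), from a knockdown effect of 0.49 without and -0.23 with IFN-β. *Ly6a*, which encodes the surface antigen Sca-1, had -0.70 ± 0.11 (adjusted p = 0.00962), from 0.48 and -0.23. The 3 genes stayed past the threshold in all alternatives tried, with adjusted p up to 0.0152 for *Il15ra* and *Slco3a1* and 0.0468 for *Ly6a*.

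Antiviral effectors, the interferon-induced proteins that act on viral RNA, translation, assembly or release, held more genes past the threshold than any other list. Of 49 tested members 12 were lower and none was higher, the median interaction was -0.36, and 48 of the 49 values were below 0. The 12 were 24.5% of those tested, against 0.669% lower over all genes. At an unadjusted p under 0.05, 40 were lower (81.6%, against 6.53% over all genes) and none higher, DESeq2 called 26 lower (2.82% over all genes), and limma-voom called 13 (0.664% over all genes). The counts of every later list are read against the same shares over all genes and the median of -0.00. The median lay between -0.41 and -0.27 over all alternatives, whereas the number called was 3 without shControl unstimulated replicate 3, 25 without shControl unstimulated replicate 2 and 4 to 14 without any other library. *Ifi44* was at 22.4, 24.6 and 17.9 CPM in unstimulated shControl, 35.1, 36.6 and 42.7 in unstimulated sh*Ppargc1b*, 633, 662 and 659.8 in IFN-β-treated shControl and 646, 617 and 649 CPM in IFN-β-treated sh*Ppargc1b* cells. The unstimulated groups were apart and the treated groups overlapped, so its interaction of -0.85 ± 0.12 (adjusted p = 0.00617) came with a knockdown effect of 0.82 without and -0.03 with IFN-β. *Bst2*, which encodes tetherin, a protein that holds budding virions at the membrane, showed the same form at 32.0, 34.9 and 31.5, then 49.5, 49.8 and 48.2, then 181, 195 and 189, and then 200.004, 208 and 188 CPM in the same order of groups. Its interaction was -0.50 ± 0.07 (adjusted p = 0.00447).

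*Isg15*, a ubiquitin-like modifier, had an interaction of -0.62 ± 0.13 (adjusted p = 0.0489), with 2.0e-12 to 0.149 over the alternatives and the highest value without sh*Ppargc1b* unstimulated replicate 3. *Slfn5*, of the Schlafen family, had -0.51 ± 0.11 (adjusted p = 0.0383, 3.1e-13 to 0.128 over the alternatives, highest without shControl unstimulated replicate 3). The other 8 members past the threshold lay between -0.49 and -0.28. Among guanylate-binding proteins and immunity-related GTPases, which attack the vacuoles of intracellular pathogens, 2 of 16 tested were lower and none higher, with a median of -0.34 (12.5% lower, and 1 to 5 called with 1 library left out, the 5 without shControl IFN-β replicate 1 or shControl unstimulated replicate 2). *Gbp5* (chr3:142493978-142522344) was at 41.0, 39.8 and 36.2 CPM in unstimulated shControl, 47.2, 45.6 and 54.0 in unstimulated sh*Ppargc1b*, 692, 751 and 706 in IFN-β-treated shControl and 579, 569.7 and 557 CPM in IFN-β-treated sh*Ppargc1b* cells. The genotypes did not overlap in either treatment, and the knockdown effect went from 0.33 to -0.33, an interaction of -0.66 ± 0.09 (adjusted p = 0.00368). *Irgm1*, an immunity-related GTPase, had -0.38 ± 0.07 (adjusted p = 0.0254, 5.3e-06 to 0.127 over the alternatives, highest without shControl unstimulated replicate 3).

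Promoters are shown because most genes past the threshold respond to IFN-β. RefSeq windows (GRCm38.p6) that run from 250 bases before to 50 bases after a gene's start were matched by symbol for 96 of the 122 lower genes and 7 of the 11 higher genes. The letters GAAA, any 2 bases and GAAA again, the core of the ISRE, stood on either strand in 14 of the 96 (14.6%, exact 95% binomial interval 8.21% to 23.3%) and on the gene strand in 8.33%. They stood in 4% of the 11290 matched genes of all tested, in 3.99% of all RefSeq genes with a window and in 13.8% of 717 matched genes that rose with IFN-β by at least 1 log2 in shControl but did not pass the interaction test. The lower genes that rose by as much in shControl held it in 16.2% of 74. Below, the matches before the RefSeq start of named lower genes are shown 5′ to 3′ on the gene's strand with 25 bases on each side. They are cut off at that start, and where a gene has several windows, that with the most matches is shown. The capitals mark the ISRE core in either orientation, and matches that overlap are joined.
Apol9b: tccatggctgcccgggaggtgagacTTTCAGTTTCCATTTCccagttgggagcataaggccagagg
Ifi205: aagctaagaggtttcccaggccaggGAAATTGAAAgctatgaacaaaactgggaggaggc
Gbp5: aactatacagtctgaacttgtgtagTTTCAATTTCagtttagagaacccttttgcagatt
Isg15: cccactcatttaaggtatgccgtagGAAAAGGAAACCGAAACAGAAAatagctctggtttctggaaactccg
Slfn5: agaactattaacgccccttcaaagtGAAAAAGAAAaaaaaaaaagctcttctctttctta
Bst2: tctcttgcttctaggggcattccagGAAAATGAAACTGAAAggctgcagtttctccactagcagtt
Irgm1: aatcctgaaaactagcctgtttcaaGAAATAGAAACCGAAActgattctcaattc
In the same order they lie at chr15:77729010-77729075 (plus strand), chr1:174031855-174031914 (minus), chr3:142496744-142496803 (plus), chr4:156200850-156200921 (minus), chr11:82951922-82951981 (plus), chr8:71537562-71537627 (minus) and chr11:48871421-48871475 (minus). The cores began between 165 bases before the RefSeq start in *Gbp5* and 30 bases before it in *Irgm1*, and *Isg15* held 3 overlapping matches. In *Gbp5* and *Slfn5* the segment lies inside the gene's GENCODE span, so the RefSeq start used is downstream of the GENCODE start.

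Other letters were searched on both strands of the same windows, where matches to different motifs may overlap. The STAT site TTCNNNGAA stood in 13.5% of the 96 lower genes and 8.35% of all matched genes tested, and the NF-κB-like site, GGGA, any 4 bases and CC, in 36.5% and 29.9%. In the 717 matched genes that rose with IFN-β in shControl but were not called, the shares were 9.62% and 28.7%. TCAAGGTCA, the site of the estrogen-related receptors with which PGC-1β works, stood in 0 of the 96 and in 0.31% of all matched genes tested. At so low a share the 0 tells nothing about the lower genes. Of the 7 higher genes it stood in *Inpp4a*, and none held the ISRE core. A match is a description of letters and not of binding.

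Among the interferon receptor and its signal transducers 2 of 17 tested genes were lower, none was higher, and the median was -0.11 (11.8% lower, with 4 called without shControl unstimulated replicate 2 and none when replicate 1 of unstimulated sh*Ppargc1b* or replicate 3 of unstimulated shControl was left out). *Irf7*, the transcription factor that amplifies the interferon response, was at 34.7, 48.7 and 38.7 CPM in unstimulated shControl, 63.1, 67.1 and 54.4 in unstimulated sh*Ppargc1b*, 619.8, 675 and 685 in IFN-β-treated shControl and 595, 638 and 588 CPM in IFN-β-treated sh*Ppargc1b* cells. The genotypes were apart without IFN-β and overlapped with it. The interaction was -0.72 ± 0.14 (adjusted p = 0.0244, 4.5e-22 to 0.119 over the alternatives, highest without shControl unstimulated replicate 3), and its exons overlap those of *Phrf1*. *Jak2*, a kinase of cytokine receptors, had -0.37 ± 0.07 (adjusted p = 0.0205, 3.5e-06 to 0.0869), from a knockdown effect of 0.61 without and 0.24 with IFN-β. None of 10 tested genes of interferon negative feedback passed the test with edgeR or limma-voom, 2 were lower at an unadjusted p under 0.05 and 2 with DESeq2, and *Ptpn1*, a phosphatase, had 0.06 ± 0.06 (adjusted p = 0.836). Among sensors of nucleic acids 2 of 26 were lower with a median of -0.24 (7.69% lower, with 11 called without shControl unstimulated replicate 2 and 0 to 2 without any other library). These were *Ifi205*, of the interferon-inducible p200 family, at -0.71 ± 0.15 (adjusted p = 0.0365, 5.2e-17 to 0.142) and *Aim2*, which senses DNA in the cytosol, at -0.28 ± 0.06 (adjusted p = 0.0381, 0.00142 to 0.165). *Ifi205* belongs to a family of near-identical genes, so its count is uncertain.

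Genes of MHC class I and peptide loading, which show peptides of the cell's own proteins to CD8 T cells, had 6 of 24 tested lower, none higher, a median of -0.28 and 23 values below 0 (25% lower, against 0.669% of all genes). *Psmb8*, a subunit of the immunoproteasome, was at 61.8, 58.4 and 60.0 CPM in unstimulated shControl, 66.0, 70.4 and 70.7 in unstimulated sh*Ppargc1b*, 159, 164 and 162 in IFN-β-treated shControl and 140.4, 147 and 148 CPM in IFN-β-treated sh*Ppargc1b* cells. The genotypes did not overlap and changed order, with an interaction of -0.36 ± 0.06 (adjusted p = 0.0097, 5.2e-06 to 0.0506 over the alternatives). The value 0.0506 was that without shControl unstimulated replicate 3. *Tapbpl*, an editor of bound peptides, had -0.50 ± 0.10 (adjusted p = 0.0334, up to 0.111 without sh*Ppargc1b* unstimulated replicate 3). *Nlrc5*, the transactivator of class I genes, had -0.40 ± 0.08 (adjusted p = 0.0333, up to 0.139), and *Tap1*, of the peptide transporter, had -0.38 ± 0.07 (adjusted p = 0.0263, up to 0.127), both highest without shControl unstimulated replicate 3. Exons of *Nlrc5* overlap *9330175E14Rik*, and those of *Tap1* overlap *Psmb9*. The number called in the list was 1 without replicate 1 or 3 of unstimulated shControl, replicate 3 of IFN-β-treated shControl or replicate 3 of IFN-β-treated sh*Ppargc1b* cells, and 12 without sh*Ppargc1b* IFN-β replicate 2, while the median stayed between -0.31 and -0.23 in all alternatives.

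Genes of MHC class II and costimulation had 3 of 18 tested lower and none higher. The median was -0.01 and had the other sign in 7 of 20 alternatives, among them scaling by totals (0.03). The 3 were all costimulatory molecules for T cells. *Cd86*, a ligand of CD28 (chr16:36603869-36666081), was at 41.2, 40.3 and 41.8 CPM in unstimulated shControl, 80.1, 76.7 and 73.5 in unstimulated sh*Ppargc1b*, 181, 181 and 178 in IFN-β-treated shControl and 236, 226 and 218 CPM in IFN-β-treated sh*Ppargc1b* cells. The knockdown libraries were higher in both treatments, by 0.90 without and 0.33 with IFN-β on the log2 scale. The interaction was -0.57 ± 0.06 (adjusted p = 0.000743), but the gap in CPM was 10.9 ± 5.67 larger with IFN-β (SE).

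*Tnfsf4*, which encodes OX40 ligand, was at 9.99, 8.42 and 9.95 CPM in unstimulated shControl, 34.9, 30.7 and 32.2 in unstimulated sh*Ppargc1b*, 33.2, 37.7 and 31.5 in IFN-β-treated shControl and 61.7, 72.1 and 68.8 CPM in IFN-β-treated sh*Ppargc1b* cells. The unstimulated knockdown libraries thus lay near the IFN-β-treated control libraries. The interaction was -0.80 ± 0.12 (adjusted p = 0.00653), and the gap in CPM was 10.3 ± 3.83 larger with IFN-β. *Cd40*, the receptor through which T cells license dendritic cells, had -0.77 ± 0.14 (adjusted p = 0.0214, 9.1e-11 to 0.103, highest without shControl unstimulated replicate 3), from a knockdown effect of 0.76 without and -0.01 with IFN-β.

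Of 20 chemokines tested, *Ccl5* was lower, none was higher, and the median was -0.22. The number called was 2 without replicate 1 of unstimulated sh*Ppargc1b* or replicate 2 or 3 of IFN-β-treated sh*Ppargc1b* cells. *Ccl5*, which draws T cells and monocytes, was at 22.7, 22.6 and 22.2 CPM in unstimulated shControl, 70.1, 64.1 and 52.8 in unstimulated sh*Ppargc1b*, 127, 118 and 116 in IFN-β-treated shControl and 211, 176 and 164 CPM in IFN-β-treated sh*Ppargc1b* cells. The knockdown libraries were higher in both treatments with no overlap, and the interaction was -0.85 ± 0.13 (adjusted p = 0.0094). In CPM the gap was 23.9 ± 15.2 larger with IFN-β, so the estimate had the other sign on that scale, with an SE too large to settle it. Of 23 cytokines tested, *Tnf* was lower at -0.46 ± 0.10 (adjusted p = 0.0408, 5.6e-08 to 0.128, highest without sh*Ppargc1b* unstimulated replicate 3), from a knockdown effect of 0.85 without and 0.39 with IFN-β, and the median was -0.19. The number of cytokines called was 5 without sh*Ppargc1b* IFN-β replicate 2, and 0 or 1 without any other library. *Il1b* had -0.33 ± 0.12 (adjusted p = 0.297, and 0.00135 to 0.567 over the alternatives, past the threshold only in the test without a filter on low counts), *Il6* 0.05 ± 0.17 (adjusted p = 0.96) and *Il12b* 0.37 ± 0.32 (adjusted p = 0.779).

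None of 25 tested NF-κB subunits, inhibitors and early target genes passed the test with edgeR or limma-voom, 10 were lower at an unadjusted p under 0.05 and DESeq2 called 3 lower. The median was -0.16, and 24 of the 25 values were below 0. *Malt1*, which couples receptors to NF-κB, had -0.23 ± 0.09 (adjusted p = 0.392, 0.0239 to 0.691 over the alternatives, past the threshold only in the test without a filter on low counts). In the inflammasome and pyroptosis list 2 of 14 were lower, with a median of -0.15. The number called was 3 without shControl IFN-β replicate 1 or sh*Ppargc1b* IFN-β replicate 2, and 1 without any other library. *Il18bp*, the secreted inhibitor of IL-18, had -0.63 ± 0.10 (adjusted p = 0.0097), from 0.37 without and -0.27 with IFN-β, and its exons overlap those of *Numa1*. *Casp4*, which encodes caspase-11, a sensor of bacterial lipid A, had -0.31 ± 0.07 (adjusted p = 0.0408, 0.00348 to 0.162). *Nlrp3* had -0.16 ± 0.08 (adjusted p = 0.537) and *Pycard* 0.08 ± 0.05 (adjusted p = 0.697).

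**Figure D2:**
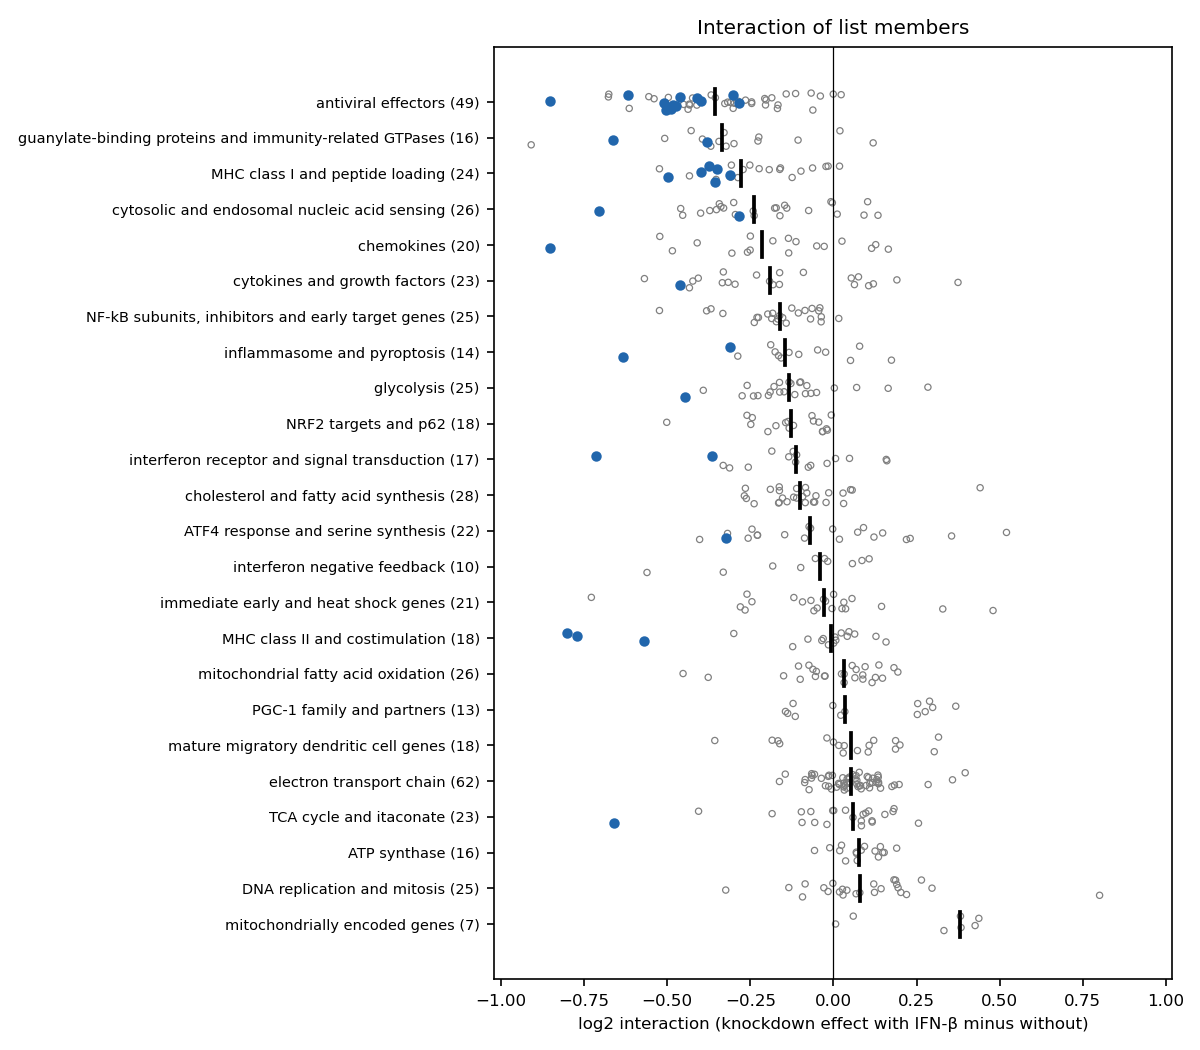
Log2 interaction (x axis) of the tested members of 24 gene lists (y axis, number tested in brackets). Open circles did not pass the threshold, blue points did, and black bars are medians, from -0.36 in antiviral effectors to 0.38 in mitochondrially encoded genes. The x axis leaves out 4 members beyond 1 in size.

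The 4 lists of nuclear genes of mitochondrial metabolism (electron transport chain, ATP synthase, TCA cycle and itaconate, fatty acid oxidation) held 1 gene past the threshold, among 62, 16, 23 and 26 tested. With 0.730% of all genes past it, this count does not set the lists apart from all genes. They do not cover every mitochondrial protein. Outside them *Mrpl39*, of the mitochondrial ribosome, *Gpd2*, the mitochondrial glycerol-3-phosphate dehydrogenase, and *Tomm70a*, an import receptor, named after their values were seen, were lower at -0.52 ± 0.07, -0.30 ± 0.06 and -0.28 ± 0.05, and stayed past the threshold in 12, 4 and 7 of 12 leave-out fits. None of 62 tested genes of the electron transport chain passed with edgeR, limma-voom or DESeq2, and at an unadjusted p under 0.05 none was lower and 3 were higher (*Ndufa4*, *Ndufb9* and *Ndufa6*). The median interaction was 0.05, beside a median knockdown effect of -0.29 without and -0.23 with IFN-β. The subunits of succinate dehydrogenase had interactions of 0.12 ± 0.06 for *Sdha*, 0.07 ± 0.08 for *Sdhb*, -0.04 ± 0.07 for *Sdhc* and 0.07 ± 0.06 for *Sdhd* (adjusted p from 0.561 to 0.921). The widest of their 95% intervals, that of *Sdhb*, ran from -0.09 to 0.24. None of 16 ATP synthase genes passed with any of the 3 tools (1 higher at an unadjusted p under 0.05), with a median of 0.08, and *Atp5b* had -0.01 ± 0.07 (adjusted p = 0.982). *Cox6b1*, of complex IV, had 0.11 ± 0.07 (adjusted p = 0.649).

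The gene past the threshold was *Acod1* in the list of the TCA cycle and itaconate, which makes itaconate from cis-aconitate and is an immune-response gene (chr14:103046977-103056573). It was at 389.7, 394 and 370.3 CPM in unstimulated shControl, 676, 659 and 647 in unstimulated sh*Ppargc1b*, 1889, 2133 and 2004 in IFN-β-treated shControl and 2301, 2119 and 2127 CPM in IFN-β-treated sh*Ppargc1b* cells. The genotypes were apart without IFN-β and overlapped with it, with a knockdown effect of 0.78 and 0.12 and an interaction of -0.66 ± 0.07 (adjusted p = 0.000744). The median of the list's 23 tested genes was 0.06. Of 26 tested genes of mitochondrial fatty acid oxidation none passed with edgeR or limma-voom, 1 was lower and 1 higher at an unadjusted p under 0.05, and DESeq2 called 1 lower. *Acsl1*, which activates fatty acids, had -0.38 ± 0.10 (adjusted p = 0.0989, 9.9e-07 to 0.318 over the alternatives, among them 0.00818 in the fit with a replicate block of library-code runs and 0.0113 with DESeq2), *Cpt1a*, which admits them to the mitochondrion, 0.19 ± 0.07 (adjusted p = 0.284) and *Hadha* 0.03 ± 0.07 (adjusted p = 0.937).

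Mitochondrial structure genes did not pass either, with 0.21 ± 0.07 for the fusion gene *Mfn2* (adjusted p = 0.264), 0.03 ± 0.05 for *Opa1*, 0.09 ± 0.05 for the fission gene *Dnm1l* and 0.09 ± 0.07 for the cristae gene *Chchd3* (adjusted p from 0.642 to 0.904). In glycolysis *Hk3*, an isoform of hexokinase found in myeloid cells, was lower, none of the 25 tested was higher, and the median was -0.13 (4 lower without sh*Ppargc1b* IFN-β replicate 2). *Hk3* was at 92.0, 93.6 and 91.4 CPM in unstimulated shControl, 111, 100.2 and 111 in unstimulated sh*Ppargc1b*, 286, 294 and 289 in IFN-β-treated shControl and 233, 260.0 and 247 CPM in IFN-β-treated sh*Ppargc1b* cells. The genotypes changed order with no overlap, and the interaction was -0.45 ± 0.07 (adjusted p = 0.00767). The glucose transporter *Slc2a1* had -0.19 ± 0.13 (adjusted p = 0.682).

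**Figure D3:**
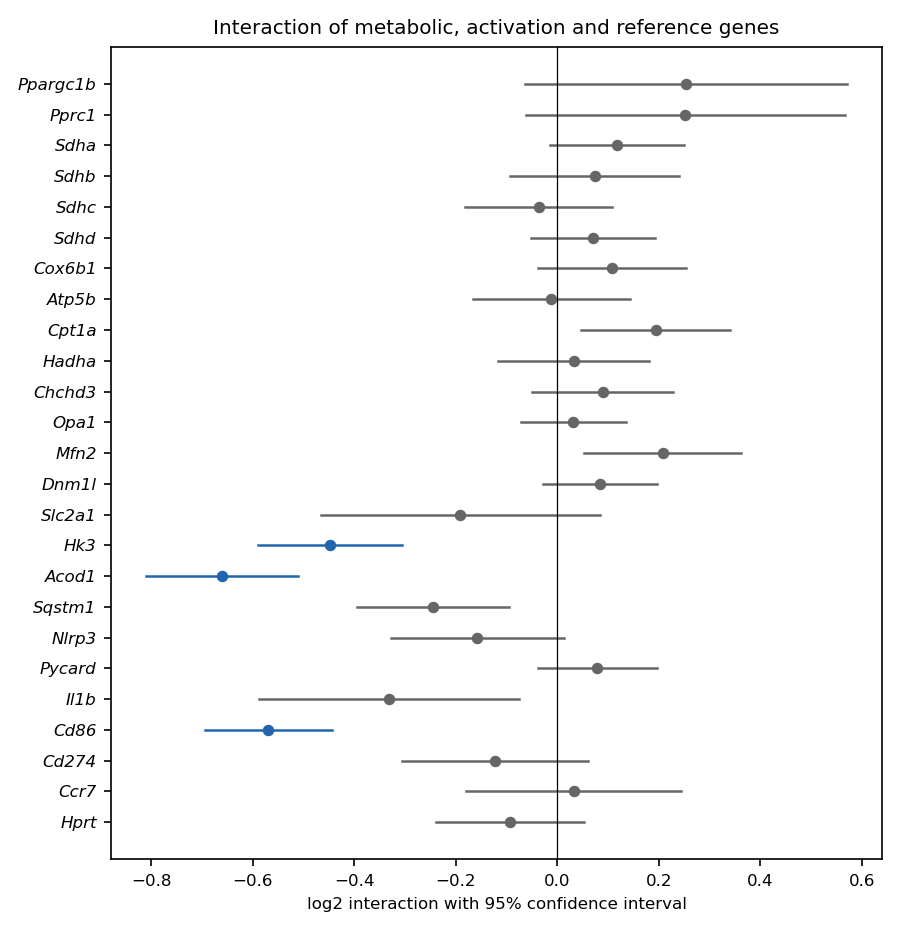
Log2 interaction (x axis) with its 95% confidence interval for 25 genes of metabolism, activation and reference (y axis). Hk3, Acod1 and Cd86 (blue) passed the threshold, and the intervals of the 4 succinate dehydrogenase genes all include 0.

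Of 13 listed genes of the mitochondrial genome 7 were tested. *mt-Nd3*, *mt-Nd4l*, *mt-Co2*, *mt-Co3*, *mt-Atp6* and *mt-Atp8* did not pass the filter on low counts, and the reason was not tested. The 7 tested genes had the highest median of the 24 lists, 0.38, with all values above 0. None passed with edgeR or limma-voom, whereas 5 were higher at an unadjusted p under 0.05 and DESeq2 called 4. *mt-Nd2*, a subunit of complex I, was at 1907, 1882 and 1938 CPM in unstimulated shControl, 1608, 1811 and 1757 in unstimulated sh*Ppargc1b*, 1122, 1123 and 1216 in IFN-β-treated shControl and 1566, 1199 and 1471 CPM in IFN-β-treated sh*Ppargc1b* cells. Replicate 2 of the last group lay within the range of the treated control libraries, and its other libraries lay above it. Without that library 5 of the genes passed and the median was 0.46. *mt-Cytb* had an interaction of 0.43 ± 0.10 (adjusted p = 0.0706) and *mt-Nd2* of 0.44 ± 0.11 (adjusted p = 0.0799), while *mt-Co1* and *mt-Nd6* had 0.06 ± 0.06 and 0.01 ± 0.09. The summed level of the 7 genes was 29098 to 29651, 26422 to 27544, 23709 to 25482 and 23705 to 27432 CPM in the usual order of groups.

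Other metabolic and stress lists gave 1 call. *Slc3a2*, a chain of amino acid transporters in the list of the ATF4 response (22 tested, median -0.07), had -0.32 ± 0.06 (adjusted p = 0.0206, 5.7e-05 to 0.0859, highest without sh*Ppargc1b* unstimulated replicate 2). The number called in that list was 2 without sh*Ppargc1b* IFN-β replicate 1 and 0 without any 1 unstimulated library other than sh*Ppargc1b* replicate 1. None of 28 genes of cholesterol and fatty acid synthesis passed with the 3 tools (5 lower and 1 higher at an unadjusted p under 0.05, median -0.10, *Scd2* -0.06 ± 0.12). None of 18 NRF2 targets passed with edgeR or limma-voom, although all 18 values were below 0, 6 were lower at an unadjusted p under 0.05 and 2 with DESeq2, and the median was -0.13. *Sqstm1*, the selective autophagy receptor p62, had -0.24 ± 0.07 (adjusted p = 0.142, 0.0171 to 0.393 over the alternatives, past the threshold with DESeq2 and in the test without a filter on low counts) and *Fth1*, a chain of ferritin, -0.06 ± 0.09.

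None of 21 immediate early and heat shock genes passed with edgeR (3 lower and 1 higher at an unadjusted p under 0.05, 1 lower each with DESeq2 and limma-voom, median -0.03, *Hspa8* 0.03 ± 0.07). The same was so for 18 genes of mature migratory dendritic cells (1 higher at an unadjusted p under 0.05, none with the other tools, median 0.05, *Tmem123* 0.19 ± 0.10). For 25 genes of DNA replication and mitosis no call came from any tool and none from the unadjusted threshold, with a median of 0.08 and *Mki67* at 0.22 ± 0.20. Of 13 tested genes of the PGC-1 family and its partners none passed with any tool, 1 was lower and 3 higher at an unadjusted p under 0.05, the median was 0.03, and *Gabpa* had -0.00 ± 0.06. The medians of these lists, apart from cholesterol synthesis, ATF4 and NRF2, had the other sign in 1 to 4 of 20 alternatives. *Ccr7*, the receptor for migration to lymph nodes, had 0.03 ± 0.10, the checkpoint ligand *Cd274* -0.12 ± 0.09 and the reference gene *Hprt* -0.09 ± 0.07.

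Among lower genes outside the lists, *Tagap*, which encodes a GTPase-activating protein, differed in form. It was at 14.1, 13.5 and 12.3 CPM in unstimulated shControl, 13.3, 11.03 and 14.7 in unstimulated sh*Ppargc1b*, 82.9, 91.5 and 90.3 in IFN-β-treated shControl and 47.5, 47.0 and 54.4 CPM in IFN-β-treated sh*Ppargc1b* cells. The genotypes overlapped without IFN-β and were apart with it, and the interaction was -0.79 ± 0.13 (adjusted p = 0.00962). The largest interaction in size among named lower genes was that of *Serpina3g*, a protease inhibitor of a family of near-identical genes, at -1.42 ± 0.27 (adjusted p = 0.0234, 3.1e-15 to 0.084, highest without sh*Ppargc1b* unstimulated replicate 3). *Apol9b*, which shares sequence with *Apol9a* so that its count is uncertain, had -1.25 ± 0.17 (adjusted p = 0.00407).

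*Apol9b* went from 0.490, 0.508 and 0.443 CPM in unstimulated shControl and 0.843, 0.980 and 1.13 in unstimulated sh*Ppargc1b* to 23.98, 23.2 and 26.3 and to 21.9, 20.2 and 21.5 CPM with IFN-β. The genotypes changed order without overlap. *G530011O06Rik*, a transcript that overlaps exons of *Mid1*, had -1.20 ± 0.23 (adjusted p = 0.0266, 8.7e-13 to 0.144), and *Heatr9* had -1.11 ± 0.23 (adjusted p = 0.0359, 2.2e-07 to 0.106). *Hsh2d*, an adaptor of lymphocyte signalling, had -0.87 ± 0.15 (adjusted p = 0.015, 9.5e-07 to 0.0653), and *Tmem171* had -0.84 ± 0.15 (adjusted p = 0.0183, 2.1e-05 to 0.0638). For these 4, the highest of the leave-out values was that without shControl unstimulated replicate 3.

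The higher genes were fewer and fell with IFN-β in shControl cells, with the exception of *Fabp4*. *Irs2*, the adaptor that links insulin and cytokine receptors to PI3K (chr8:10984681-11008458), was at 40.9, 43.7 and 41.5 CPM in unstimulated shControl, 33.8, 32.4 and 31.8 in unstimulated sh*Ppargc1b*, 18.2, 18.0 and 19.1 in IFN-β-treated shControl and 19.4, 21.2 and 19.5 CPM in IFN-β-treated sh*Ppargc1b* cells. The genotypes were apart in both treatments in opposite order, and the interaction was 0.49 ± 0.08 (adjusted p = 0.0094). *Mfap3l* was at 17.3, 15.3 and 14.6 CPM in unstimulated shControl, 17.4, 17.5 and 14.5 in unstimulated sh*Ppargc1b*, 5.72, 6.35 and 6.09 in IFN-β-treated shControl and 12.2, 12.7 and 10.1 CPM in IFN-β-treated sh*Ppargc1b* cells. Its genotypes overlapped without IFN-β and were apart with it, with an interaction of 0.88 ± 0.14 (adjusted p = 0.0117).

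*Fam43a* was at 22.9, 24.9 and 25.9 CPM in unstimulated shControl, 20.2, 20.2 and 20.6 in unstimulated sh*Ppargc1b*, 9.03, 8.36 and 9.03 in IFN-β-treated shControl and 11.1, 10.1 and 11.3 CPM in IFN-β-treated sh*Ppargc1b* cells. The knockdown effect was -0.27 without and 0.29 with IFN-β, an interaction of 0.57 ± 0.09 (adjusted p = 0.0125). *Irs2*, *Mfap3l* and *Fam43a* stayed past the threshold in all alternatives, with adjusted p up to 0.0486. *Fabp4*, a fatty acid carrier and target of PPARγ, had a knockdown effect of -1.14 without and -0.65 with IFN-β, an interaction of 0.49 ± 0.09 (adjusted p = 0.0254, 1.1e-05 to 0.102, highest without shControl IFN-β replicate 2).

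Higher values also came from *Etl4* (1.08 ± 0.20, adjusted p = 0.0208, up to 0.0689), *Plcl1* (0.996 ± 0.19, adjusted p = 0.0226, up to 0.0689), *Gprc5c*, an orphan receptor (0.65 ± 0.12, adjusted p = 0.0248, up to 0.0845) and *Inpp4a*, a phosphoinositide phosphatase (0.35 ± 0.07, adjusted p = 0.0356, up to 0.108). All 4 had their highest leave-out value without shControl IFN-β replicate 2. *Arhgap26*, a GTPase-activating protein, had 0.82 ± 0.15 (adjusted p = 0.0214, up to 0.0656 without shControl unstimulated replicate 3), and *Ivns1abp* 0.36 ± 0.07 (adjusted p = 0.0242, up to 0.0659 without shControl IFN-β replicate 3). The 11th higher gene, *Gm44190*, was named after its values were seen. It is a low transcript annotated as sense intronic with group means of 0.464, 0.282, 0.114 and 0.309 CPM, an interaction of 2.11 ± 0.44 (adjusted p = 0.0383) and no leave-out fit past the threshold.

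Of the lists of markers of other cell types, 1 held members past the threshold. Of 6 markers of plasmacytoid dendritic cells, *Bst2* and *Tcf4* were lower among 4 tested, and 1 or 2 were with any 1 library left out. The other tested members, *Ccr9* and *Cox6a2*, did not pass. The 4 interactions ran from -0.50 to 0.24, with 3 below 0. *Tcf4*, the transcription factor of that lineage, had -0.49 ± 0.11 (adjusted p = 0.0438, 2.5e-09 to 0.127, highest without shControl unstimulated replicate 3). *Bst2* is also an interferon-stimulated gene, and in shControl cells levels rose with IFN-β 5.73-fold for *Bst2* and 2.08-fold for *Tcf4*. The defining marker *Siglech* had 0 to 4 counts per library and *Ly6d* 0 to 13, and the summed level of the 4 tested was 118 to 143, 184 to 207, 374 to 407 and 406 to 419 CPM in the usual order of groups. The part of such cells in these results was not tested. Of the tested markers of neutrophils (10), eosinophils (6), mast cells and basophils (7) and lymphocytes (5), none passed with any of the 3 tools or had an unadjusted p under 0.05. Their most expressed tested members, *S100a8*, *Siglecf*, *Kit* and *Cd8a*, had interactions of 0.05 ± 0.37, -0.06 ± 0.20, -0.15 ± 0.17 and 0.24 ± 0.32. For the macrophage-like and dendritic-like lists *Lyz2* had -0.00 ± 0.08 and *Itgax* -0.06 ± 0.07, and 1 member each was past an unadjusted p of 0.05.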

How the data were processed

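The authors prepared libraries after ribosomal RNA depletion, sequenced read pairs, trimmed them with Trim Galore 0.6.0 and mapped them with STAR 2.7.8a to mm10, per the submitters' processing notes, with GENCODE M20 as annotation. The deposited values were raw counts per gene with no normalization. Pairs that map to several places were not counted and the strand setting was not stated, so overlapping genes and near-identical copies are uncertain. All 12 value columns were used.

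Here counts were fitted with edgeR 4.0.16 in R 4.3.3, after filterByExpr (minimum count 10, total 15), with TMM scaling, 1 mean per group over 12 libraries, and quasi-likelihood F-tests. Benjamini-Hochberg adjustment ran over all 18228 genes, with a threshold of 0.05. Log2 CPM used a prior count of 2. The members and lists were chosen with earlier results of these data known. Named genes were those the study names, the 15 called genes most below and above 0 with 1 sign in all leave-outs and a log2 CPM averaging 2 or more, the 6 largest of opposite effect, and up to 4 called per list, or its most expressed tested member where none was called. The lists were 24 processes and 7 marker sets. DESeq2 1.42.0, limma-voom 3.58.1, other scalings and filters, and leaving out each library were alternatives. The fit was tested on simulated data. Within each group, libraries differed beyond counting noise (mean chi-square per gene 11.1 to 29.2, genes with at least 200 counts per pair). Coordinates are from GENCODE M21 (GRCm38) and promoters from RefSeq (GRCm38.p6). The binomial interval covers counting error only.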

Additional observations from a re-analysis of the deposited data

Results flagged for a closer look

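The effect of the knockdown differed between unstimulated and IFN-β-treated cells by the edgeR test of the interaction, with Benjamini-Hochberg adjustment, for 47 of the 87 named genes. The values are the log2 knockdown effect with IFN-β minus that without it. Among effectors and GTPases of interferon defence they were lower for *Apol9b* (-1.25), *Ifi44* (-0.85), *Irf7* (-0.72), *Ifi205* (-0.71), *Gbp5* (-0.66), *Isg15* (-0.62), *Slfn5* (-0.51), *Bst2* (-0.50), *Irgm1* (-0.38), *Jak2* (-0.37) and *Aim2* (-0.28). Among genes of antigen presentation, costimulation, cytokines and the inflammasome they were lower for *Ccl5* (-0.85), *Tnfsf4* (-0.80), *Cd40* (-0.77), *Il15ra* (-0.73), *Il18bp* (-0.63), *Cd86* (-0.57), *Tapbpl* (-0.50), *Tnf* (-0.46), *Nlrc5* (-0.40), *Tap1* (-0.38), *Psmb8* (-0.36) and *Casp4* (-0.31). Lower values also stood for *Serpina3g* (-1.42), *Apol9b* (-1.25), *G530011O06Rik* (-1.20), *Heatr9* (-1.11), *Tent5c* (-0.88), *Hsh2d* (-0.87), *Cd69* (-0.86), *Tmem171* (-0.84), *Tagap* (-0.79), *Slco3a1* (-0.72), *Ly6a* (-0.70), *Acod1* (-0.66), *Tcf4* (-0.49), *Hk3* (-0.45) and *Slc3a2* (-0.32). Higher values stood for *Etl4* (1.08), *Plcl1* (0.996), *Mfap3l* (0.88), *Arhgap26* (0.82), *Gprc5c* (0.65), *Fam43a* (0.57), *Fabp4* (0.49), *Irs2* (0.49), *Ivns1abp* (0.36) and *Inpp4a* (0.35). Of these genes, 19 stayed past the threshold whichever library was left out. The gap test for a sample far from the others was not applied, since it takes groups of 4 to 10 and these hold 3. All value columns entered the comparison.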

How the results depend on the processing

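Against 133 calls (11 higher, 122 lower, 29 with opposite knockdown effects), scaling by library totals gave 84 (17, 67 and 23) and moved the median of all genes to 0.04. Testing all genes with at least 1 count gave 525 (103, 422 and 58), and at least 1 CPM in 6 libraries 145 (19, 126 and 30). DESeq2 gave 449 (84, 365 and 34), robust empirical Bayes 170 (22, 148 and 28) and an absolute log2 of at least 1 gave 9 (2, 7 and 0). RLE size factors and limma-voom stayed within 1.5 times. Leaving out 1 library gave 36 to 271 calls (4 to 56 higher, 32 to 215 lower, 16 to 40 opposite). The lowest of each was without shControl unstimulated replicate 3 and the highest without shPpargc1b IFN-β replicate 2. Calls were also under 133 by more than 1.5 times without shControl unstimulated replicate 1 (61), shControl IFN-β replicates 2 (61) and 3 (76), shPpargc1b unstimulated replicates 2 (63) and 3 (59) and shPpargc1b IFN-β replicate 3 (77). The cause was not tested.

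The labels do not number replicates. A replicate block made of the 3 runs of library codes gave 425 calls (86 higher, 339 lower, 60 opposite). Deviations from group means correlated at -0.13 to 0.36 within run 1, 0.16 to 0.39 in run 2 and 0.25 to 0.49 in run 3, and 11 of 12 libraries correlated best with their own run, a hint from the data and not the design. Of named genes, the block changed the call of *Acsl1* (adjusted p = 0.00818, with 9.9e-07 to 0.318 over its alternatives).

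No gene past the threshold reversed. Of genes not past it, totals turned *Gabpa* (0.035), *Atp5b* (0.025), *Sdhc* (0.000455) and *Lyz2* (0.032), and the 1 CPM filter *Gabpa* (0.0018). With 1 library left out the interaction was -0.064 to 0.051 for *Atp5b*, -0.091 to 0.091 for *Ccr7*, -0.16 to 0.011 for *Fth1*, -0.040 to 0.045 for *Gabpa*, -0.016 to 0.089 for *Hadha*, -0.010 to 0.082 for *Hspa8*, -0.050 to 0.23 for *Il6*, -0.063 to 0.043 for *Lyz2*, -0.21 to 0.29 for *S100a8*, -0.14 to 0.012 for *Scd2*, -0.059 to 0.022 for *Sdhc* and -0.20 to 0.070 for *Siglecf*. Groups of 3 libraries limit the precision of every value.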
